A study of Saccharomyces cerevisiae BY4741 with 25 samples.

Results

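The RRC7 pool of budding yeast carried 151 sequence variants that were called with at least 10 reads and were absent from the list of its parental strains. They are 151 of the 377 RRC7 calls at that depth, of 496 RRC7 calls at any depth, and of 4459 calls in the 9 full lists of the series. A call counted as absent when its chromosome, position, reference allele and alternate allele did not all match a parental call. Among the RRC7 calls of any depth, 293 had a match, and 52 of the 203 without one had under 10 reads. The 7 unmatched calls with 10 to 11 reads, just inside the limit, had shares of 27 to 100% (median 30%), and the 7 with 8 to 9 reads, just outside it, had 25 to 100% (median 33%).

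The study sequenced the genomes of mutants with derepressed SIR2 to find the mutations they carry. All 9 libraries are genomic DNA of stationary-phase cells of the BY4741 background, grown in YPD at 30 °C. The RRC7 library (strain YTT66_a33 in the labels) holds clones that were grown from ascospores after backcrossing, cultured one by one and harvested together, with MATa and MAT alpha cells mixed. The parental library holds the strains YTT66 and YTT67 together, so its shares mix 2 genotypes. Each group is 1 library, so no difference between them has a replicate check. The other 16 samples of the series were not analysed here. The sources used here do not give the number of clones in the pool, the number of backcrosses or the mutagen.

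In such a backcross pool, every clone is chosen for the mutant phenotype. An allele that the phenotype requires is expected in all clones, an allele on another chromosome in about as many clones as lack it, and an allele nearby in an intermediate share that falls with the distance. SIR2 encodes the histone deacetylase that silences chromatin at the ribosomal DNA, the telomeres and the mating-type loci. UBP3 encodes a ubiquitin-specific protease that works with the cofactor Bre5, and YNG2 encodes a subunit of the NuA4 histone acetyltransferase that acetylates histones H4 and H2A.

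Only 2 of the 151 calls were present in nearly all reads without any parental call close by, and both changed a protein. In UBP3 (YER151C), a C-to-T change at position 470174 of chromosome 5 turned the codon Gaa into Aaa, written E751K in the deposited annotation, with residues counted from the start of the protein. In YNG2 (YHR090C), a C-to-T change at position 283952 of chromosome 8 turned tGc into tAc, written C225Y. Both genes lie on the strand opposite to the reference, so each change is G to A on its coding strand. The share of UBP3 reads with the change was 100% of 72 reads (exact 95% interval 95.01 to 100%), and that of YNG2 was 98% of 63 reads (91.47 to 99.96%), with 1 read of the reference allele. Neither position was called in the parental list or in any of the other 7 mutant lists, and the nearest parental call was 47355 bases from the UBP3 change and 46005 bases from the YNG2 change. In the RefSeq gene order of assembly R64, UBP3 lies between SPI1 and YER152C, and YNG2 between GAR1 and MSR1. Each call was tested against a share of 50% with a two-sided exact binomial test, adjusted by the Benjamini-Hochberg method over all 377 RRC7 calls. The adjusted p was 6.653e-21 for UBP3 and 7.167e-17 for YNG2. The test covers the counting of reads in 1 library and not which clones entered it.

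A call is named near-fixed here when its share was at least 90% and its adjusted p under 0.05. By this rule 28 of the 151 calls were near-fixed, against 48.5% of all 377 RRC7 calls, most of which were shared with the parental strains. The share limit alone gave the same 28, so the test removed none of the 151. The 28 comprised 19 insertions or deletions and 9 single-base changes. At 21 of them the parental list held another allele at the same position, and at 5 more it held a call within 30 bases, which leaves UBP3 and YNG2. Of the 108 calls that had no parental call within 30 bases and a call at their position in at most 1 other mutant list, those 2 were near-fixed (1.85%). The limit of 30 bases was chosen after the data had been seen.

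Of the 21 near-fixed calls at a parental position, 13 were insertions or deletions in a run of a single base, with 10 to 59 reads and call scores of 5.11 to 84.5. The score is the one deposited with each call, on a scale whose meaning is not defined in the sources used here. Another 7 were single-base changes with 14 to 21 reads. These included a pair of synonymous calls in each of the flocculin genes FLO9 and FLO1, which encode repeat-rich cell-wall adhesins, and calls in the Ty retrotransposon frames YBL100W-B and YBL005W-B. The remaining one was a deletion in ALT2, which encodes an alanine transaminase paralog. The other genes that carry or adjoin the near-fixed single-base runs were NTG1, YCR024C-B, MDJ1, YHL041W, YIL161W, YIL055C, TDA4 and ERR3, and 13 of all 28 near-fixed calls listed several alternate alleles. At these 21 positions the parental library also had high shares of alternate reads, 89 to 100%.

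At 7 sites an RRC7 insertion or deletion with a share of 88 to 100% lay at or within 12 bases of a parental one that changed the length by the same number of bases. The sequences of 5 of them are shown because they show how close to a parental variant the RRC7 variant is. Each is the reference sequence spanned by both calls, as the deposited alleles give it, with the removed bases in capitals, or for ASG1 with the added bases in capitals.
RPS8A downstream, RRC7, position 88481 of chromosome 2: tGAGGAgaagagaaga
RPS8A downstream, parental: tgagGAGAAgagaaga
ALT2, RRC7, position 678296 of chromosome 4: cATt
ALT2, parental: cATt
serine tRNA gene tS_AGA_D3, RRC7, position 1305680 of chromosome 4: ctttGg
serine tRNA gene tS_AGA_D3, parental: cTttgg
ASG1, RRC7, position 105433 of chromosome 9: aAATaataataat
ASG1, parental: aaatAAAaataat
MEH1, RRC7, position 451580 of chromosome 11: ggaacacgaacacGAACAG
MEH1, parental: gGAACACgaacacgaacag

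The ALT2 deletion gave the same sequence as the parental one and differed only in how the alleles were written. At the other 6 sites the resulting sequences differed at 1 base. Downstream of the ribosomal protein gene RPS8A, and outside it, 5 bases were missing in both lists, at 100% of 53 reads in each. ASG1, a zinc-cluster transcription regulator, gained 3 bases in RRC7 at 100% of 32 reads and in the parental list at 88% of 44 reads. MEH1, a subunit of the EGO complex on the vacuole that acts on TORC1, lost 6 bases in RRC7 at 88% of 34 reads and in the parental list at 100% of 64 reads. The remaining sites were intergenic, at position 405084 of chromosome 7 and position 465172 of chromosome 11. Of the 6 near-fixed protein-changing calls, against 16.4% of all RRC7 calls, 4 therefore had a parental call at or within 30 bases of the position: ALT2, ASG1, YCR024C-B and YHL041W.

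**Figure D1:**
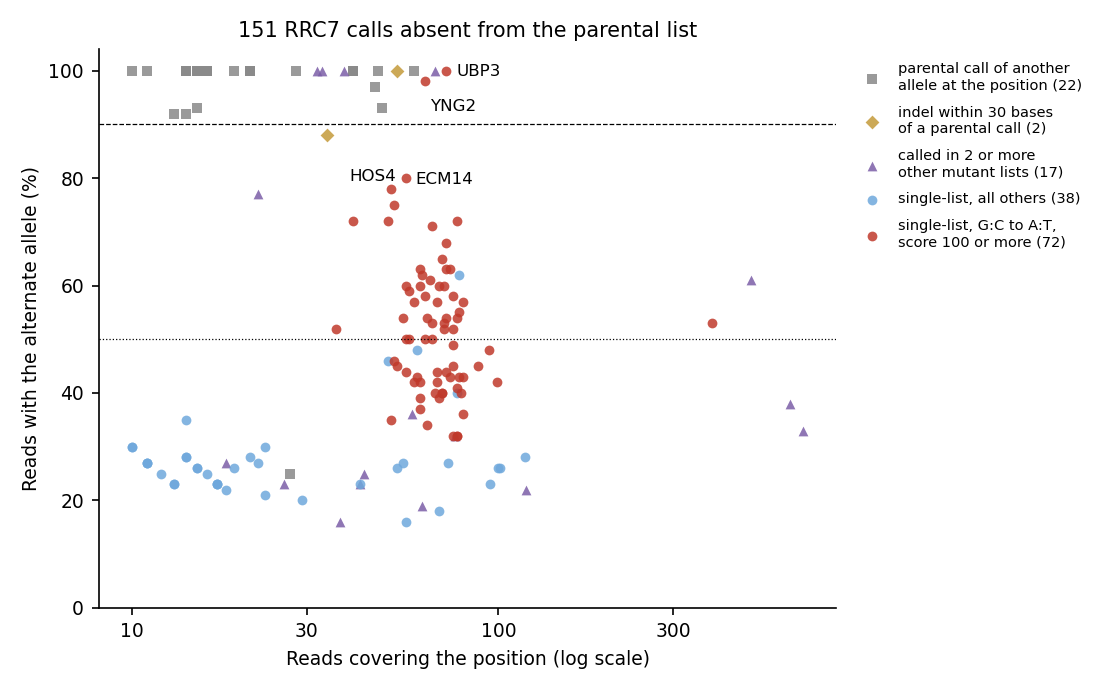
Share of reads with the alternate allele (%) against reads covering the position (log scale) for the 151 calls, coloured by their relation to the parental list and to the other 7 mutant lists. The dashed line is at 90% and the dotted line at 50%. UBP3 and YNG2 are the only red points above the dashed line, while the calls at parental positions (grey) sit at 92 to 100% except for 1 at 25%.

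Few of the 151 calls lay near the 2 near-fixed changes. On chromosome 5 the nearest call with a score of at least 100 was a synonymous change in MAM1, which encodes a meiotic kinetochore protein, at 59% of 57 reads and 97.68 kb from the UBP3 change. The next was V374I in YEL020C at 40% of 70 reads, 351.0 kb away on the same side. None of the 151 lay between UBP3 and the other end of the chromosome. On chromosome 8, G20D in ECM14, a carboxypeptidase-like protein, stood at 80% of 56 reads (67.57 to 89.77%) and 85.78 kb from the YNG2 change. Its adjusted p against 50% was 1.193e-05. On the other side, P24L in YHL018W stood at 53% of 66 reads, 214.2 kb away. Between them lay a low-scoring change upstream of PCL5, at 35% of 14 reads, a score of 22 and 46.96 kb. Beyond YHL018W, a low-scoring change downstream of YHL048C-A stood at 26% of 100 reads, with a score of 52 and 278.3 kb from the YNG2 change. Chromosome 8 also held a near-fixed call at a parental position, in a single-base run of YHL041W, at 93% of 48 reads (82.8 to 98.69%) and a score of 15.6.

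**Figure D2:**
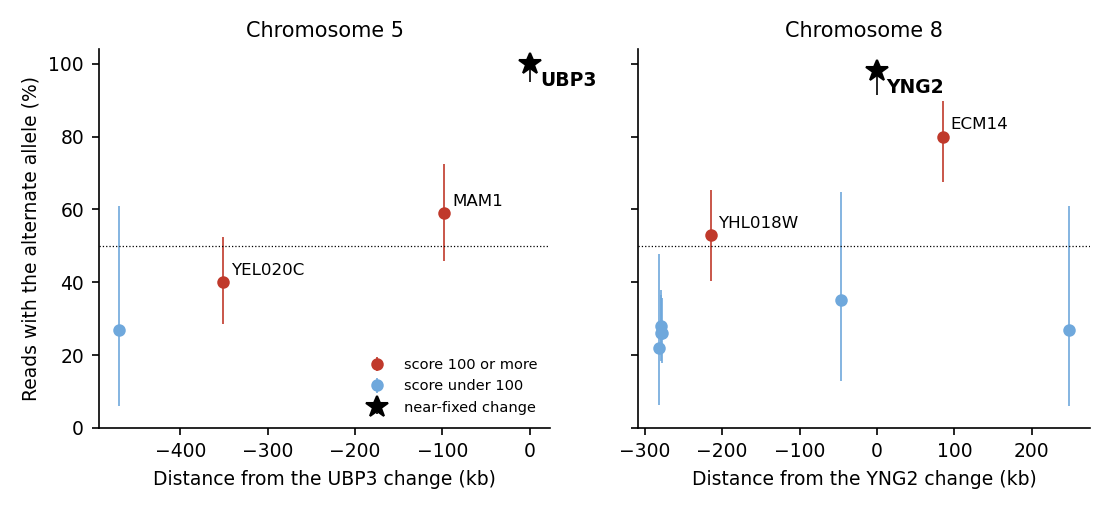
Share of reads with the alternate allele (%) against the distance (kb) from the UBP3 change on chromosome 5 and from the YNG2 change on chromosome 8, with exact 95% intervals from read counts. ECM14 at 80% is the nearest high-scoring call to YNG2 and MAM1 at 59% the nearest to UBP3.

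Of the 151 calls, 47 were missense, 27 synonymous, 4 frameshifts, 2 in-frame insertions or deletions and 4 in exons of RNA genes or pseudogenes. Another 10 lay upstream and 13 downstream of a gene, and 44 were intergenic. No call added a stop codon. The 53 protein-changing calls fell in 53 different genes, 51 of them in the RefSeq table. The median share was 49% among missense calls, 59% among synonymous calls and 40.5% among intergenic calls, and each of these classes ranged up to 100%. These counts and medians include the calls at parental positions. The 3 near-fixed frameshifts and the 6 near-fixed synonymous calls all lay at such positions.

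Single-list calls are those whose position was not called in the parental list and was called in at most 1 other mutant list. There were 112, and 59 of them had a score of at least 200. Of those 59, 29 changed a protein, with shares of 40 to 100% (median 54%). Besides UBP3, YNG2 and MEH1 these were 26 genes of many roles, each with 1 protein-changing call.

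Among genes of DNA and chromatin, HOS4, a subunit of the Set3 histone deacetylase complex, carried M287I at 78% of 51 reads (adjusted p 0.0001175). RAD14, the damage-recognition factor of nucleotide excision repair, carried V48I at 72% of 50 reads (0.00436). RFA2, a subunit of the single-strand binding protein RPA, carried C231F at 62% of 78 reads (0.04566). These 3 shares were above 50% beyond read counting, as was P232S in MBR1 at 63% of 72 reads (0.03659), with p adjusted over all 377 RRC7 calls. In that list 54.6% of all RRC7 calls were above 50% in the same test, which lowers the adjusted p of the others. Adjusting over the 151 calls alone raised the adjusted p of UBP3 from 6.653e-21 to 6.395e-20. RFA2 and MBR1 had unadjusted binomial p of 0.03079 and 0.02446. Their adjusted p was near the threshold of 0.05, so both calls are sensitive to that choice.

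Apart from ECM14, described above, the other genes had shares that did not pass that test. Of the membrane transporters, YOR1 (A27T) stood at 54% of 77 reads, PDR5 (R490K) at 50% of 63 and the oligopeptide transporter OPT1 (R471K) at 57% of 80. Of the RNA-processing factors, the tRNA methyltransferase subunit GCD14 (G329D) stood at 46%, the tRNA deaminase subunit TAD3 (G287D) at 52% and the RNase P subunit POP1 (G690R) at 54%. NRP1 (G681E) stood at 58%. Genes of proteolysis and vesicle traffic included the amidase NTA1 (G406S) at 45%, the vacuolar carboxypeptidase PRC1 (S343T) at 48%, VPS70 (G230D) at 42% and the SNARE protein VTI1 (R34K) at 57%. Genes of division and the cytoskeleton included the chitin synthase CHS2 (P257L) at 50%, the haspin-like kinase ALK1 (R90K) at 49%, twinfilin TWF1 (V281M) at 58%, the spindle-orientation factor KAR9 (R25K) at 55% and the meiotic spindle-pole protein SPO21 (S115N) at 53%. ILV3, an enzyme of branched-chain amino acid synthesis, carried G110S at 52%. YBR284W (L507F, 43%), YJL045W (T618I, 60%) and IRC23 (S104N, 40%) complete the set together with YHL018W and ECM14. Apart from UBP3, YNG2, ECM14 and MEH1, the highest of these shares was that of HOS4.

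A further 11 missense single-list calls had scores of 100 to under 200 and shares of 32 to 54% (median 37%). They lay in TOR2, MCD4, NTE1, SLX4, PIM1, YAK1, ATH1, AST1, SHE10, YEL020C and YFR016C. TOR2, the kinase at the core of TORC2, carried A1304T at 36% of 80 reads (adjusted p 0.02796). MCD4, an enzyme of GPI anchor synthesis, carried A226T at 32% of 77 reads (0.004649), and the phospholipase NTE1 carried E289K at 32% of 75 reads (0.004114). These shares were below 50% beyond read counting, against 13.0% of all RRC7 calls in that direction. The score itself followed the share: single-list G:C-to-A:T calls ran from 40 to 100% at scores of 200 or more, from 32 to 54% at scores of 100 to under 200, and from 16 to 28% below 100. A limit on the score therefore removes low shares, and the medians above depend on it.

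**Figure D3:**
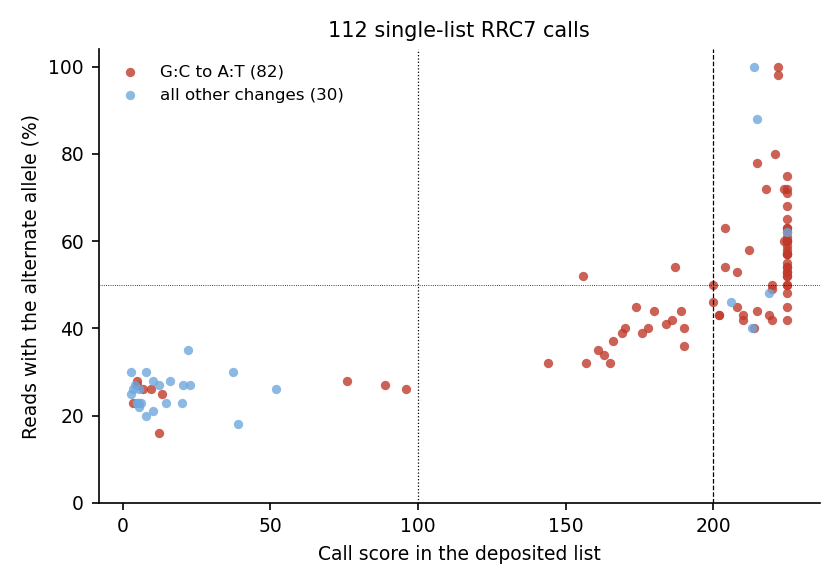
Share of reads with the alternate allele (%) against the deposited call score for the 112 single-list calls, split into G:C-to-A:T changes and all other changes. No call above a score of 100 has a share under 32%, and the calls below that score are mostly of other changes.

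Among the 119 single-base calls with 1 alternate allele, 83 were G:C to A:T (69.75%, exact 95% interval 60.65 to 77.83%). The same share was 29.17% of the 192 single-base calls found in both lists. It depended on the support of the call, being 72 of 76 (94.74%) for single-list calls with a score of at least 100 and 10 of 31 (32.26%) for those below. The 4 well-supported exceptions were the RFA2 and PRC1 changes, an A-to-G change upstream of YJL144W at 46% of 50 reads and an A-to-T change downstream of the vacuolar sorting gene VPS33 at 40% of 77 reads. The 72 G:C-to-A:T calls comprised 37 missense, 13 synonymous, 15 intergenic and 4 upstream changes and 3 in RNA exons. On the coding strand, 31 of the 37 missense and 9 of the 13 synonymous changes were G to A, and the others C to T.

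Along each chromosome these 72 calls were almost always of a single kind on the reference strand. Of all, 41 were C to T and 31 were G to A, yet 55 of the 57 pairs of neighbouring calls on a chromosome had the same reference base (96.49%). All 10 calls of chromosome 10 were C to T, as were all 5 of chromosome 11 and all 4 each of chromosomes 13 and 14. All 8 calls of chromosome 7 were G to A, as were all 9 of chromosome 16, all 6 of chromosome 15 and all 4 of chromosome 9. In all, 12 of the 14 chromosomes with at least 2 such calls held a single kind. For chromosome 3 this rests on 2 calls, 1 of them in LEU2, whose unusual depth is described below. The kind switched once on chromosome 2, from 1 G to A in AST1 to 6 C to T, and once on chromosome 4, from 3 C to T to 1 G to A. UBP3 and YNG2 each lay on a chromosome whose 3 calls were all C to T.

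The same count over the parental G:C-to-A:T calls of that score gave 24 of 40 pairs (60%). Over the RRC7 calls that are also in the parental list it gave 22 of 34 (64.71%). In the other 7 mutant pools, single-list calls chosen the same way gave 84.21 to 100% (median 91.11%). At this score limit the runs were therefore seen in single-list calls of every mutant pool. They were not seen to that extent in the calls shared with the parental strains. The 100% came from RRC6, with only 12 pairs. With no limit on the score, the other 7 pools gave 72.5% (RRC8, 29 of 40 pairs) to 92.42% (RRC1), against 65.67% of parental pairs. At a score of at least 200 they gave 75.76% (RRC5) to 100% (RRC6, 3 pairs), against 60.87%. Neighbouring calls are not independent, so no p is given. The pattern was noticed in these data before it was counted. At a score of at least 200 the RRC7 count was 38 of 39 pairs, and with no limit on the score it was 59 of 67 (88.06%).

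**Figure D4:**
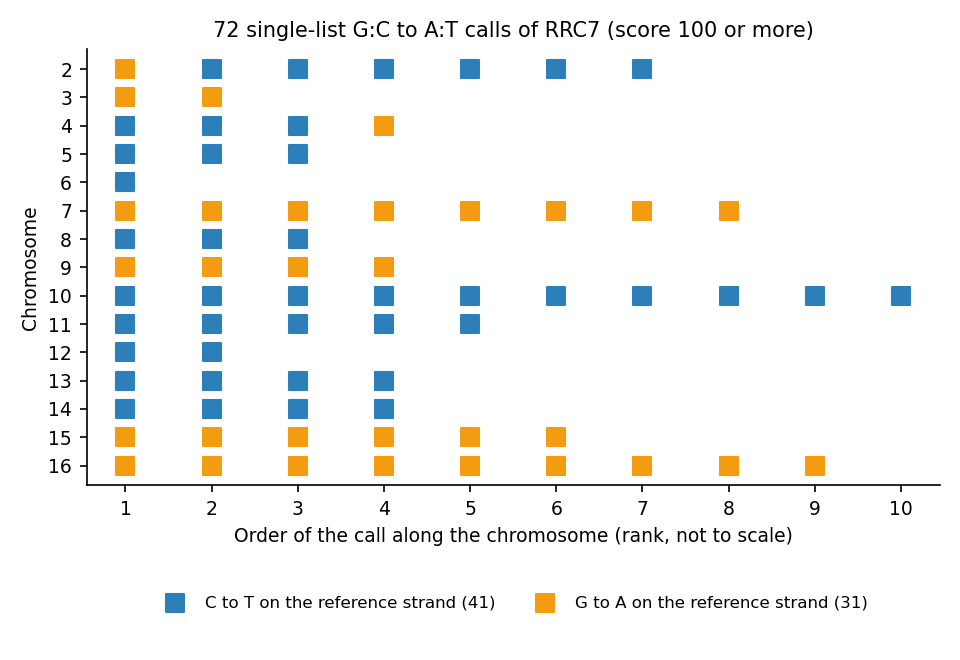
Kind of change on the reference strand for the 72 single-list G:C-to-A:T calls scored 100 or more, in their order along each chromosome (rank, not distance). Blue squares are C to T (41) and orange squares G to A (31), and only chromosomes 2 and 4 hold both.

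The shares of these 72 calls spread more widely than read counting alone gives. Their median was 52% (32 to 100%) and their SD 13.96 percentage points, against a counting SD of 5.896 at their depths. Without chromosomes 5 and 8 the 66 remaining calls had a median of 50% (32 to 78%) and an SD of 11.39 against 5.977. By the binomial test adjusted over all 377 RRC7 calls, 13 of the 72 stood above 50% and 5 below. The 13 include MBR1 and IMT2, whose adjusted p of 0.03659 and 0.03951 were near the threshold, so this count is sensitive to the calls adjusted over. With no limit on the score, 13 of 82 stood above and 11 below, since the limit removes low shares. Apart from genes named above, the high ones included a synonymous change in the phosphate transporter PHO91 (75% of 52 reads), a change upstream of YPL150W (72% of 77) and one in the initiator methionine tRNA gene IMT2 (63% of 74). The low ones also included a synonymous change in TBS1 (32% of 77) and R111K in AST1 (34% of 64). The median difference in share between neighbouring calls was 6 points for the 9 pairs under 25 kb apart. It was 9 points for the 23 pairs at 25 to under 100 kb and 11 points for the 25 pairs farther apart. The ranges overlapped (1 to 15, 0 to 41 and 1 to 45 points), and a trend with distance was not tested. Pairs with UBP3 and YNG2 were included and gave the highest differences, 41 and 45 points. Fewer clones with an allele and fewer reads from those clones cannot be told apart in a pool.

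The low-scoring single-list calls had other features. The 34 calls with a score under 100 had shares of 16 to 35%, and 24 of them were changes other than G:C to A:T with a median of 16 reads. Among the 34 were 7 protein-changing calls, in AIM5 (G61E, 16% of 56 reads), CCZ1 (D213E, 18% of 69), HXT9, YBL113C, YHL050C, YMR057C and the mating-type gene MATALPHA2 (S172A, 23% of 13). All 8 insertions or deletions with a share under 50% lay in stretches of at least 20 bases made almost wholly of A and T, with shares of 16 to 30%. A total of 17 calls had no parental call at the position but were called there in 2 or more other mutant lists, and 4 of those were near-fixed.

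LEU2, which encodes an enzyme of leucine synthesis and is deleted in BY4741, held the 4 most unusual depths. Its calls at positions 91575, 91965, 92193 and 92292 of chromosome 3 were all synonymous, at 38% of 625, 33% of 679, 61% of 490 and 53% of 384 reads. The first 3 were called in 2, 4 and 4 other mutant lists and the last in none. Depth at the LEU2 calls was 6.0 to 10.61 times the RRC7 median of 64 reads over calls with a score of at least 200, while all other members had 10 to 119 reads. The parental list called LEU2 only at the other positions 91728, 91977 and 92106. Depth there was 17.2 to 21.18 times the parental median of 61, and 8.812 to 10.25 times the RRC7 median. Fewer copies and other differences in coverage cannot be told apart from depth alone.

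Calls present in both lists changed little. Shares were compared at the 226 such calls with at least 10 reads in each library with Fisher's exact test (two-sided) on reads, which compares these 2 libraries and not conditions. After Benjamini-Hochberg adjustment, 3 differed (1.33%), and all 3 were synonymous LEU2 positions. The share fell from 81% of 1272 parental reads to 63% of 646 RRC7 reads at position 91728 (adjusted p 7.048e-15). It fell from 82% of 1292 to 66% of 656 at position 91977 (9.589e-13) and from 77% of 1049 to 65% of 564 at position 92106 (3.098e-05). Depth at these positions differed between the libraries as given above, and its part in the shares was not tested. The next was G225C in YOR223W, at 54% of 72 parental and 26% of 69 RRC7 reads, with an adjusted p of 0.05837. It passed with at least 20 reads in both lists (0.04856) or over single-base calls alone (0.04985). The 6 that followed, in COX1, YOL103W-B, YMR045C, DAN4 and HPF1 and an intergenic position of chromosome 2, had adjusted p of 0.8987 or more. Both lists gave at least 90% at 154 of the 226 calls. Where the parental share was under 90%, RRC7 was higher at 38 calls, lower at 33 and equal at 1. The median absolute difference, in either direction, was 7 points.

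**Figure D5:**
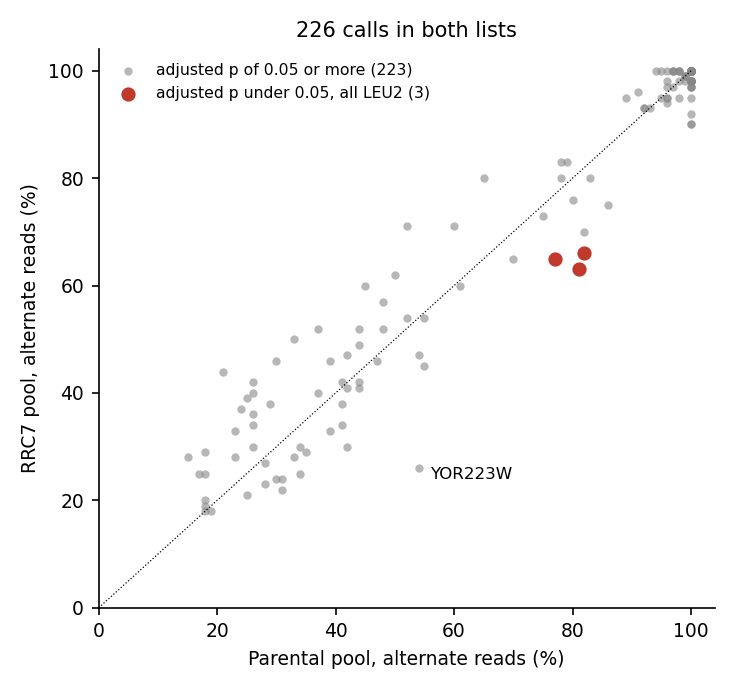
Share of reads with the alternate allele (%) in the RRC7 pool against the parental pool for the 226 calls in both lists. The 3 calls with an adjusted p under 0.05 (red) are all in LEU2 and lie below the dotted line of equal shares.

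In the other direction, 111 parental calls with at least 10 reads were absent from the RRC7 list, and RRC7 held another allele at the position for 26 of them. Of the 31 with a parental share of at least 90%, 3 had no RRC7 call within 30 bases. Only 1 of the 111 had a score of at least 200 and no RRC7 call within 30 bases.

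The members were also set against 6 lists of genes linked to the question. None of the 28 genes of the upstream activating factor, core factor and RNA polymerase I, none of the 38 of silencing and ribosomal DNA stability and none of the 43 of chromatin remodelling, acetylation and transcription elongation held a call among the 151. YNG2 was the only one of 13 NuA4 genes with a member, UBP3 the only one of 25 ubiquitin protease and Ubp3 partner genes, and TOR2 the only one of 26 genes of TOR signalling. Counting protein-changing calls alone gave the same 0 or 1 per list. Such a call was held by 51 of all 6021 protein-coding genes of the RefSeq table (0.847%), so 0 or 1 per list is not a result about the lists. The lists are not complete: HOS4 of the Set3 complex and MEH1 of the EGO complex, both named above, are in none of them. SIR2 itself held no call among the 151. A position without a call can also be one with too few reads, and coverage at uncalled positions was not analysed here.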

How the data were processed

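Genomic DNA was sequenced as paired ends on a MiSeq, per the labels' protocols. The authors deposited 1 list of called variants per library. Per the file headers, a call comes with a score (MapQ), a count of covering reads and a percent of alternate reads. The submitters' processing notes of some samples name MACS2, SAMtools 0.1.19 and Bowtie 1.0.0 without a role. No caller, call filter or genome build is given in the sources used here, and positions are those of the authors' files. All 3148 calls of 60 or fewer reads fit a deposited percent that was rounded down. Alternate reads were taken as the lowest number that gives it; above 100 reads this is a lower bound. At calls with several alternate alleles the percent covers all of them.

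Depth was a median of 40 reads over RRC7 calls and 37 over parental calls. Exact (Clopper-Pearson) 95% intervals and binomial and Fisher's exact tests cover counting error only, since amplified reads are not independent molecules. Tests were run with SciPy 1.17.1 in Python 3.11.15 and checked on simulated data. Genes were named in the text when near-fixed, protein-changing in the single-list set at a score of at least 200, in a gene list, within 3 calls of UBP3 or YNG2, deepest, or among the 10 lowest p in both lists; others were chosen after their values were seen. Members, gene lists and tests were chosen with earlier results of these data known. Alternatives were other depth, score and share limits, other matching to the parental list and the shortened RRC7 list. No protein or genome sequence was used, and RefSeq R64 gave names and neighbours only.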

Additional observations from a re-analysis of the deposited data

How the results depend on the processing

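No paired analysis was possible because each group of the whole-genome data is 1 library. The number of near-fixed calls, 28, fell to 16 with a minimum depth of 20 reads, 7 with matching by position alone, 3 when calls in other mutant lists were left out, 8 at a score of at least 200 and 2 with no parental call within 30 bases. The number of near-fixed protein-changing calls, 6, became 3 by position alone, 2 without calls of other mutant lists and 2 with no parental call within 30 bases. UBP3 and YNG2 are the 2 in both settings. The percent of G:C to A:T, 69.75%, became 53.57% with no minimum depth, 83.33% with 20 reads, 89.83% at a score of at least 200 and 81.19% without calls of other mutant lists. No call in both lists (0) differed by at least 30 points, against 3 by Fisher's exact test. The other 44 of 57 alternatives stayed within 1.5 times the count, within the 95% interval, or on the same side of the threshold. These include all alternatives of the UBP3 and YNG2 shares, of the median single-list share (43 to 56%) and of the strand runs. Adjusting p over the 151 calls alone was tried for the near-fixed counts, UBP3 and YNG2, and not for the other single shares. For the median share, the interval used was the read-counting interval of 1 call at the median depth, which is wide. For the strand runs it treated neighbouring pairs as independent, which they are not. Staying within either interval is therefore a weak check. The median fell from 55% to 43% with no limit on the score. The causes were not tested. The distance of 30 bases and the strand runs were added after seeing the data. Depth limits single shares: at the 57 reads of MAM1 the exact interval ran from 45.82 to 72.44%, and it does not cover the choice of clones.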
